A study of Drosophila melanogaster with 2 samples.

Results

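The Antennapedia complex is the more proximal of the Hox gene clusters of Drosophila melanogaster. Its 9 members treated here are lab, pb, zen, zen2, bcd, Dfd, Scr, ftz and Antp, all homeobox genes on chromosome arm 3R, and all 9 of the 13968 protein-coding genes annotated were found by symbol. Every summit of the binding lists that fell between the outermost ends of lab and Antp, or within 20 kb beyond them, was taken (3R:6641427-7019228 on dm6, 377.802 kb). The membership rule used position only, not binding values. It gave 17 of the 1338 summits that passed the authors' test of reproducibility (irreproducible discovery rate, IDR). It also gave 132 of the 30000 candidates called on the pooled libraries, 129 of 30000 in replicate 1 and 137 of 30000 in replicate 3.

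The series is chromatin immunoprecipitation and sequencing of Pita, a zinc-finger DNA-binding protein of the insulator class, in whole embryos, male and female pooled, collected over 0 to 24 hours. The flies were of the strain Pita-GFP, a stable transgenic line whose Pita carries GFP (eGFP in the description) at its C terminus, and the description in the labels states that an anti-GFP antibody was used, although the antibody field reads pita. There is 1 group of 2 libraries, named biological replicates 1 and 3, so the data hold no contrast between conditions and no test between groups was possible. Whole embryos mix all cell types and ages of the collection, so a weak signal in many cells and a strong signal in few cannot be told apart. The labels used here do not give the promoter that drives the fusion, and the control experiment named in the labels was not analysed here.

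Hox genes encode homeodomain transcription factors that give segments along the head-to-tail axis their identity, and they lie in clusters whose regulatory DNA is spread over long introns and intergenic stretches. Insulator proteins are known to bind at the borders between such regulatory domains, and Pita is known for sites at boundaries of the other fly Hox cluster, the bithorax complex. In the Antennapedia complex lab, pb, Dfd, Scr and Antp are homeotic genes, whereas zen, zen2, bcd and ftz descend from Hox genes and act, where their role is known, in early patterning. Boundary elements called SF1 and SF2 are known from the stretches on either side of ftz; their positions were not compared with the summits here.

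A pair of sequence patterns was sought in the DNA under the summits. The sites found are shown here because the strongest summits of the complex all held the same pattern of the pair, as did some weaker ones. A 17 bp pattern, called the AACC element from its last bases, and a 13 bp pattern, called the GGCG element, were learned as weight matrices from the 1077 reproducible summits outside the complex that were left after dropping those close to a stronger one. The AACC matrix was started from CTCAAACC and the GGCG matrix from AGATGGCG, the latter close to the known core sequence bound by CTCF. A summit was counted as holding an element when a match lying wholly within 50 bp of it, on either strand, scored above a level that 5% of flanking windows exceed. The 11 AACC sites of the complex follow from left to right on 3R of the RefSeq sequence of the dm6 assembly, each read 5′ to 3′ on the strand of the match, with the element in capitals and 6 bases on each side in lower case. Each is named by the position of its summit.
A 6646845, near Taf1: ttgaccTTCCCAAGCTCCCAACCcttgtc
A 6660128, near agt: ttatctTAGCCTTTTCACCAACCttttcg
A 6706523, lab to pb: aacgttCACCCAAGTTTCAATCCttcttt
A 6709057, in pb: acatcgTAGCTAGTACACAAGCCatacac
A 6709860, in pb: caacggCACTCCGTACTTGAACCaccagc
A 6780256, bcd to Dfd: atacttAAGTTGGTACAAGAACCagcatt
A 6806851, Dfd to Scr: acaactTAGCTAATACACAACCCtgcaca
A 6854452, Scr to ftz: tttgtcTGCCCTGGACACAAACCcacccc
A 6871012, ftz to Antp: gcacctAATCGAAGACAACAACCataact
A 6912841, in Antp: caggttGAGCCGAGACAGGAACCatagtt
A 6973486, in Antp: atccttCAGTCGAGACATGAACCcggaat
Of these 11 sites, 8 end in AACC and all 11 end in CC. Among the 716 sites over all reproducible summits, 62.2% end in AACC and 686 end in CC. The matrix that picked the sites is almost only C at its last bases, so the ending in CC is largely set by it. The plus strand carried 5 of the sites and the minus strand 6, so no orientation prevailed. The middle of the match lay a median of 19 bp from the summit, against 17 bp over all reproducible summits. Matches were sought only within 50 bp, which keeps this distance short wherever they lie. The best match to the GGCG element at each of the 3 summits that held it is shown in the same way, because one of them lies beside the promoter of bcd.
B 6759689, upstream of bcd: cgttttCACCAGGGGGCGTgaagag
B 6854656, Scr to ftz: tcctgaTCACAGATGCCGCtattcg
B 6912400, in Antp: acattcTGCTAGATGGCGCtgccag
The sites at bcd and in Antp also passed a stricter level that 1% of flanking windows exceed, and the one between Scr and ftz did not.

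The mean density of reproducible summits was high in the complex, but they were unevenly spread. The 17 summits correspond to 45.0 per Mb, against 9.91 per Mb on 3R and 9.73 per Mb over all arms. The arms were taken at full assembled length, including long stretches without a summit, which lowers these background densities. Some summits of the list lie within 300 bp of a stronger one and are called shoulder summits here. Without the 2 shoulder summits of the complex, 15 remained, or 39.7 per Mb. When the large arms were divided into 348 windows of the same length, with the windows of 3R set off from the complex, the others held a median of 3 reproducible summits and at most 13. The window count favours the complex, because the window was centred on it and no other window was set on a gene cluster. The stretch of the bithorax complex, taken in the same way with 20 kb on each side of its Hox genes, held 15 in 355.614 kb, or 42.2 per Mb, so the density of the Antennapedia complex was close to that of the other Hox cluster. Only 2 of the 17 lay in the 20 kb flanks, both on the lab side, and the stretch from lab to Antp without flanks held 15.

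**Figure D1:**
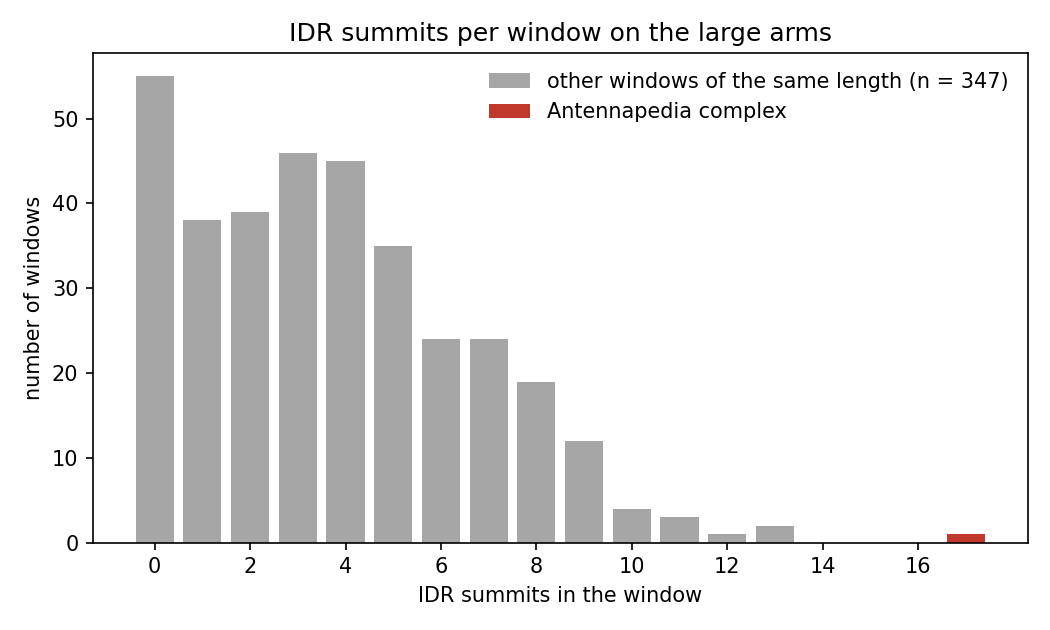
Number of windows (vertical axis) by the count of reproducible summits they hold (horizontal axis), for windows of 377.802 kb on the large chromosome arms. Grey bars are the other 347 windows, of which 55 held 0 summits and none held more than 13, and the red bar is the Antennapedia complex with 17.

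Pooled candidates as a whole were also more frequent in the complex, and their typical strength differed little from that elsewhere. The 132 amount to 349 per Mb, against 220.1 per Mb on 3R. Their median signal, the authors' own enrichment value for each peak, was 36.1 against 34.7 over all candidates, and their median rank by signal was 13333 against 15000.5. Of the 132, 17 carried a reproducible summit, which is 12.9% (exact 95% interval 7.68 to 19.8%), against 4.46% of all pooled candidates. In the bithorax complex the share was 12.1% (6.93 to 19.2%). The median signal of the reproducible summits was 1017 in the complex, 491 over all arms and 550 in the bithorax complex. The value for the complex depended on which summits were counted. Without those at Taf1 and agt, the 15 between lab and Antp had a median of 521. With shoulder summits dropped from each set, the medians were 1017 between lab and Antp, 612 over all arms and 618 in the bithorax complex. The pooled candidate lists were deposited as peaks and background together, so the candidates include background regions.

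**Figure D2:**
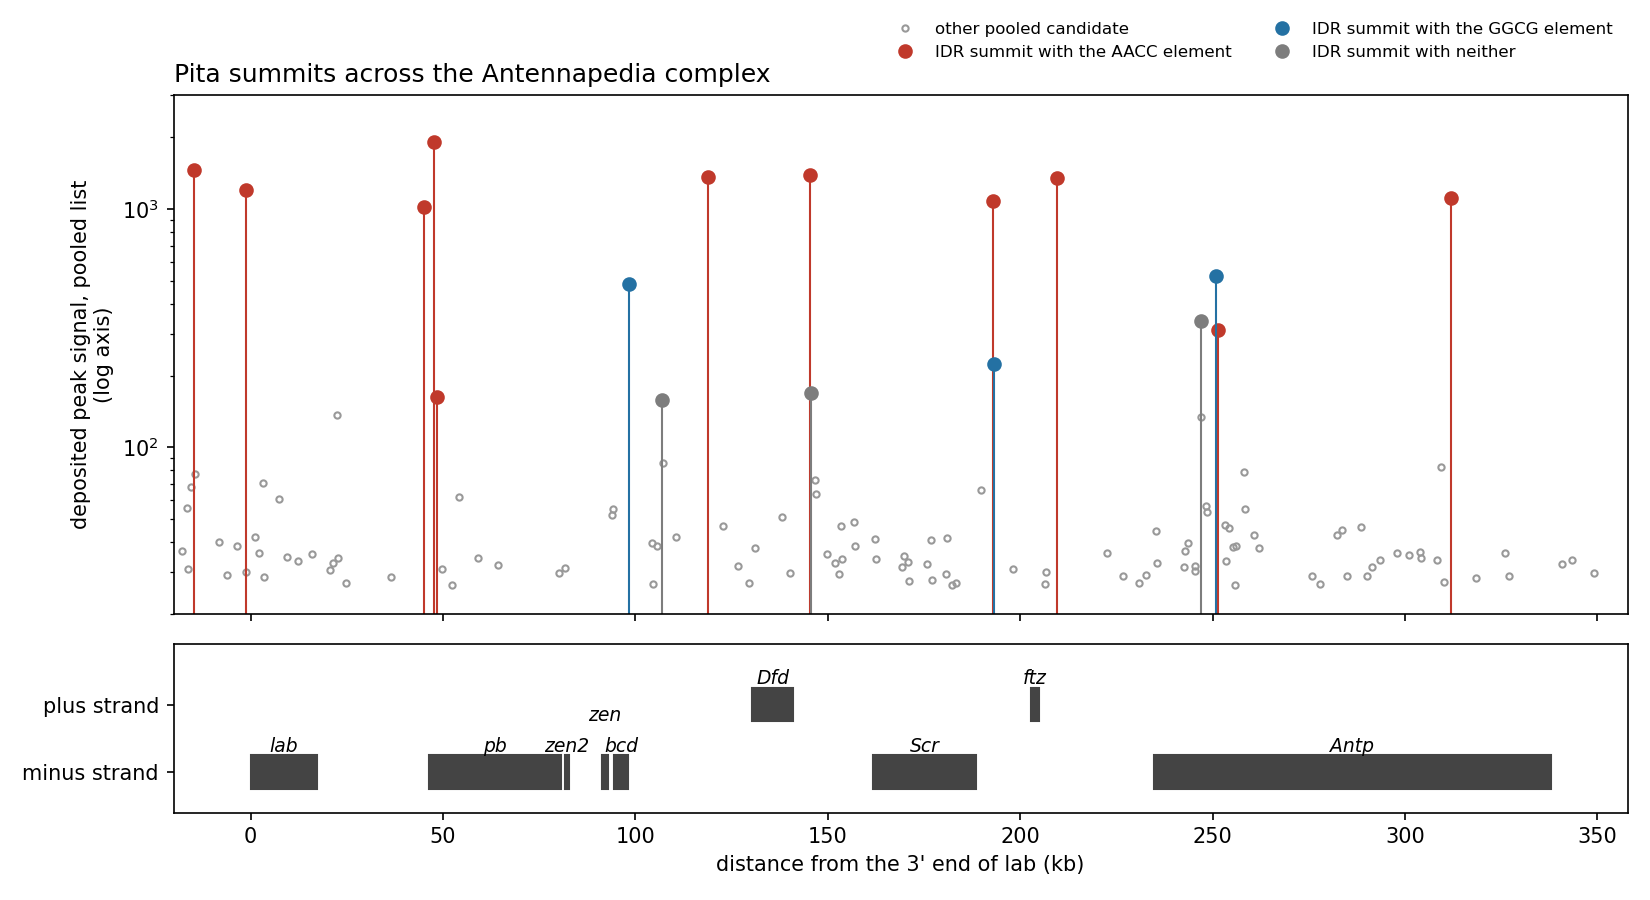
Pooled-list signal of each summit (vertical log axis) by its distance in kb from the 3′ end of lab (horizontal axis), with the 9 members drawn to scale below on their strands. Red, blue and dark grey stems are the reproducible summits with the AACC element, the GGCG element and neither, open circles are the other 115 candidates, and the 9 red stems above a signal of 1000 are spread from the lab flank into Antp.

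At the head genes, the strongest site of the complex lay inside pb. lab acts in the head and midgut, and pb in the mouthparts. The summit at 6709057, in an intron of pb near its 3′ end, had a signal of 938 in replicate 1, 992 in replicate 3 and 1913 in the pooled list, where it ranked 120. A weaker summit 803 bp away, at 6709860 in a coding exon of pb, had signals of 111 and 92.4 in replicates 1 and 3. The intronic summit was the higher of the pair in both replicates. Both lay far from the single annotated transcription start site (TSS) of pb, to which the closest of all 17 summits, the one upstream of bcd, lay at 17626 bp. In the intergenic stretch next to the 3′ end of pb, the summit at 6706523 had signals of 476 in replicate 1 and 534 in replicate 3. Inside lab there was no reproducible summit among 8 pooled candidates, of which the strongest, at 6664711 in an intron, had a signal of 71.2 and rank 2074 and was matched in replicate 3 only.

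The early-acting genes are short, and no candidate of the pooled list lay inside them. zen is needed for the dorsal extraembryonic tissue, zen2 is its close relative, bcd encodes the maternal anterior determinant and ftz is a pair-rule gene. No pooled candidate fell within the bodies of zen, zen2, bcd or ftz, which are 1.331, 1.002, 3.625 and 1.921 kb long. Of all protein-coding genes no longer than bcd, 37.7% contain one, so a count of 0 in 4 is not far from what such short genes show in general. The list of replicate 3 had 1 candidate within bcd, and that of replicate 1 had 1 within ftz. The candidates nearest their start sites were weak at zen and zen2, with signals of 52.3 and 31.1 at 1139 and 1014 bp. At ftz the nearest candidate lay 3514 bp away with a signal of 26.7, close to the lowest value in the pooled list (26.3).

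The exception was bcd, the single member with a reproducible summit at a promoter. The summit at 6759689, 223 bp upstream of its TSS, had a signal of 201 in replicate 1 and 275 in replicate 3, and its ranks were 722 and 664. In the pooled list the signal was 482. It held the GGCG element and not the AACC element. The 281 bp around it are printed on the strand of bcd (minus), 3R:6759549-6759829, and they hold 2 matches to the GGCG matrix at the stricter level, shown in capitals. The right-hand one is the site above, read here in the opposite direction, and the left-hand one lies on the strand of bcd. Their centres are 30 bp apart, 15 bp on either side of the summit.
bcd upstream: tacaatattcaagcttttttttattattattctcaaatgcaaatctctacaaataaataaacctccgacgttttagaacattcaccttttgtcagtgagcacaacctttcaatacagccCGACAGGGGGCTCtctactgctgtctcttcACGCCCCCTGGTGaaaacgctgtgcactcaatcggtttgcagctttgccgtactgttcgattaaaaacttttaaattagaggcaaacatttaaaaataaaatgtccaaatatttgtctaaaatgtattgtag
With a promoter taken as 500 bp on either side of a TSS, 1 of the 9 members (bcd) had a reproducible summit there, against 5.68% of all protein-coding genes. A pooled candidate lay at a promoter of 3 of the 9 (bcd, lab and pb), against 27.4% of all protein-coding genes. The candidates at lab and pb were weak, with signals of 35.9 at 60 bp and 29.6 at 480 bp.

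The long stretch from bcd to Dfd held 3 of the reproducible summits, and the most distal of them was among the strong ones. Dfd patterns the maxillary and mandibular segments. At 6780256, 11580 bp from the TSS of Dfd, the signal was 605 in replicate 1 and 748 in replicate 3, with ranks of 244 and 248. At 6768437, in an intron of the noncoding RNA gene lncRNA:CR42721, it was 54.6 in replicate 1 and 94.3 in replicate 3. The former held the AACC element and the latter, the weakest reproducible summit of the complex at 158 in the pooled list, held neither. Dfd itself contained 3 candidates and no reproducible summit, and its strongest candidate, at 6799602, had a signal of 51.2.

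Between Dfd, Scr and ftz, each intergenic stretch held a strong summit with a shoulder beside it. Scr patterns the labial and anterior thoracic segments. Between Dfd and Scr, the summit at 6806851 had signals of 592 and 784 in replicates 1 and 3, and its shoulder at 6807053 had 58.5 and 113. The closest TSS to the strong summit was that of the microRNA gene mir-10, which is known for its conserved place in Hox clusters, 2731 bp away. Between Scr and ftz, the summit at 6854452 had signals of 492 and 586, and its shoulder at 6854656 had 67.8 and 120.2. The former lay 4471 bp upstream of a TSS of Scr. Scr contained 13 candidates, none reproducible, the strongest with a signal of 41.5.

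Beyond ftz, a further strong summit lay in the stretch toward Antp. At 6871012 the signal was 561 in replicate 1 and 770.1 in replicate 3, 6688 bp from the TSS of ftz. The body of ftz was thus flanked by strong summits with the AACC element, at 6854452 and 6871012, which are 16560 bp apart.

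Antp, which patterns the thorax and is the longest member at 102.976 kb, contained 4 reproducible summits and 43 of the 132 candidates. The strongest was intronic, at 6973486, and lay 15116 bp from the closest start site of Antp, and had signals of 479 and 629 in replicates 1 and 3. A pair at 6912400 and 6912841, 441 bp apart in an intron, carried different elements. The GGCG summit at 6912400 had signals of 188 in replicate 1 and 335 in replicate 3, and the AACC summit at 6912841 had 194 and 117. The AACC summit was thus slightly the higher in replicate 1, and the GGCG summit was the higher in replicate 3. The fourth, at 6908286 in an annotated 3′ UTR where Antp and CG46458 overlap, had signals of 138 and 201 and held neither element. Which of these genes the UTR belongs to was not determined. None of the 3 annotated TSSs of Antp had a candidate within 500 bp, and the nearest lay 875 bp away with a signal of 36.2.

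Taken by stretch, 6 reproducible summits lay in the 199.738 kb of the member genes (30.0 per Mb) and 9 in the 138.064 kb between members (65.2 per Mb), of which 7 remained without shoulders. The candidates showed the opposite order, with 0.375 per kb in the genes and 0.311 per kb between them. Of the 8 stretches between neighbouring members, 5 held a reproducible summit, and the 3 without one were the short ones from pb to bcd. Without shoulders, the distance from one summit to the next ranged from 441 bp to 60645 bp, with a median of 14921.5 bp, and 6 of the 14 distances were over 25 kb.

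The summits of the complex were placed away from promoters. Of the 17, 3 were promoter summits, or 17.6% (exact 95% interval 3.80 to 43.4%), against 60.8% of all reproducible summits. Those 3 belonged to Taf1, agt and bcd, so between lab and Antp 1 of 15 was a promoter summit. Intergenic DNA held 7 (41.2%, 18.4 to 67.1%), against 20.5% over all. Without shoulder summits it held 5 of 15 (33.3%), against 22.0% over all. Introns held 5 (29.4%, 10.3 to 56.0%), against 13.5%. The median distance to the nearest TSS of any annotated gene was 3604 bp in the complex and 295 bp over all reproducible summits. In the bithorax complex 3 of 15 were promoter summits and 9 of 15 were intronic, with a median distance of 1746 bp. The intervals cover counting error only, and neighbouring summits of a cluster are not independent.

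**Figure D3:**
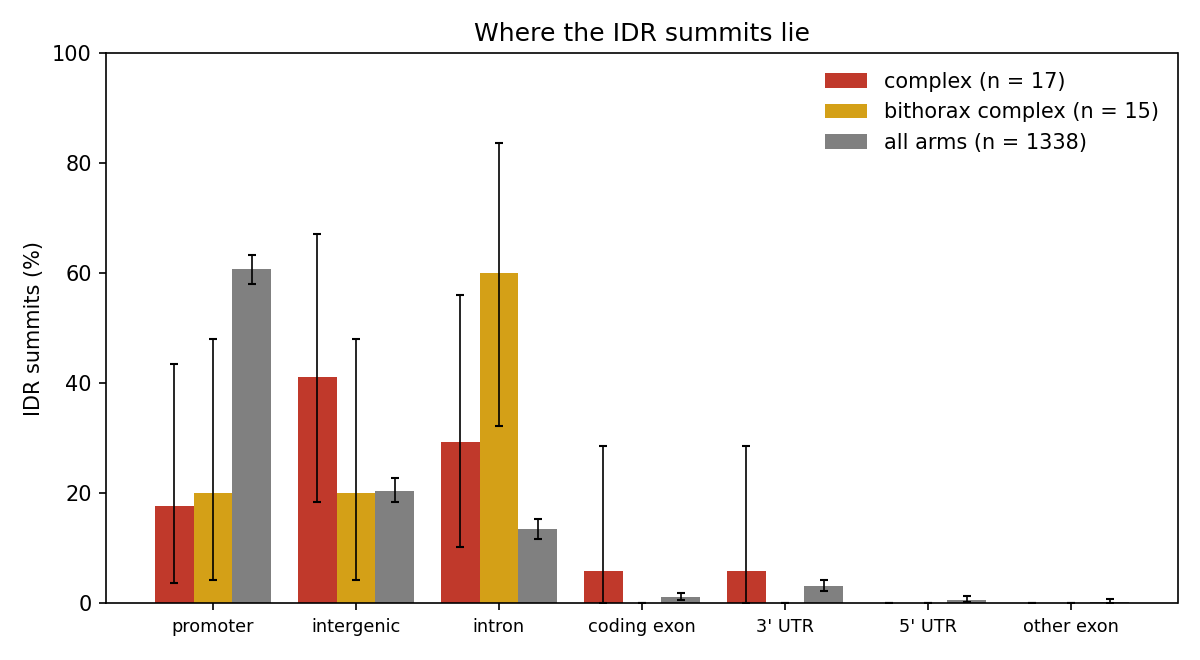
Percent of reproducible summits (vertical axis, from 0) in each class of location, for the Antennapedia complex (red, n = 17), the bithorax complex (yellow, n = 15) and all arms (grey, n = 1338), with exact 95% binomial intervals as bars. The promoter share is 17.6% in the Antennapedia complex and 60.8% over all arms.

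The strongest summits of the complex all held the AACC element at the level used, though not at a stricter one. It was held by 11 of 17 summits (64.7%, exact 95% interval 38.3 to 85.8%), against 53.5% of all reproducible summits and 7.82% of all other pooled candidates. Of the 115 other candidates of the complex, 13 held it (11.3%). In the windows centred 250 bp to either side of the 17 summits it was found in 3 of 34. The 9 summits ranked 360 or better, with signals of 1017 and above, all held it, and 2 of the remaining 8 did. This cut is the rank of the weakest of the 9 and was chosen after the values were seen. Over all arms, the element was in 85.6% of the 360 summits of these ranks and in 41.7% of the 978 below them. With the stricter level, 6 of the 9 and 1 of the 8 held it, against 76.9% and 33.0% over all arms, and those that no longer did among the 9 were at 6646845, 6706523 and 6780256. The matrix was learned outside the complex, so its matches here did not enter it.

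The GGCG element was in 3 of 17 summits (17.6%, 3.80 to 43.4%), against 17.2% of all reproducible summits. None of the 9 strongest held it, against 16.1% of the summits ranked 360 or better over all arms. No summit held both elements, against 5.53% of all reproducible summits. With so few summits, these counts of 0 cannot be set apart from those shares. Neither element was held by 3 summits (17.6%, 3.80 to 43.4%), against 34.8% of all reproducible summits. In the bithorax complex, 7 of 15 summits held the AACC element and 6 of 15 the GGCG element (40.0%, 16.3 to 67.7%), a share whose interval overlaps that of the Antennapedia complex. Base composition differed too, with a median GC content of 44.6% within 50 bp of the summits in the complex and 39.6% over all reproducible summits, and its part in the element counts was not tested.

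Most matches to the elements in the complex were not at a reproducible summit. At the stricter level, the AACC matrix matched 40 places in the window, of which 7 were at a reproducible summit (17.5%), against 180 of 2816 on 3R (6.39%). The GGCG matrix matched 47 places, of which 3 were at one (6.38%), against 47 of 4234 on 3R (1.11%). Those 3 are the pair at bcd and the site at 6912400 in Antp. The complex was thus not richer in GGCG matches, with 124 per Mb against 132 on 3R, and held 106 AACC matches per Mb against 87.8. Reproducible summits were denser in the complex than on 3R, at 45.0 against 9.91 per Mb. The shares of matches at a summit were not adjusted for that.

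The replicates gave the same summits in the complex. All 17 were matched within 100 bp by a candidate in both replicates, against 96.5% of all reproducible summits, which is in part what the reproducibility test requires. Their ranks in the replicates correlated with a Spearman coefficient of 0.94 over 17 summits, as a description, against 0.95 over the 1291 summits matched in both. The larger rank was a median of 1.13 times the smaller. The widest gap, 1.55 times, was at 6912841 in Antp, which ranked 740 in replicate 1 and 1148 in replicate 3. The signal was higher in replicate 3 at 15 of the 17, as it was at 1085 of the 1291 over all arms, and the scale of the lists differs (median signal 20.7 in replicate 3 and 18.7 in replicate 1), so levels cannot be set against each other across libraries. The 2 that were higher in replicate 1, at 6709860 and 6912841, are both AACC summits, with pooled signals of 162 and 309, that stand beside a higher summit. Of all 132 candidates, 42 were matched in both replicates (31.8%, 24.0 to 40.5%), against 22.2% of all pooled candidates. Among the 115 that were not reproducible summits, 25 were (21.7%), against 18.8% of all such candidates.

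**Figure D4:**
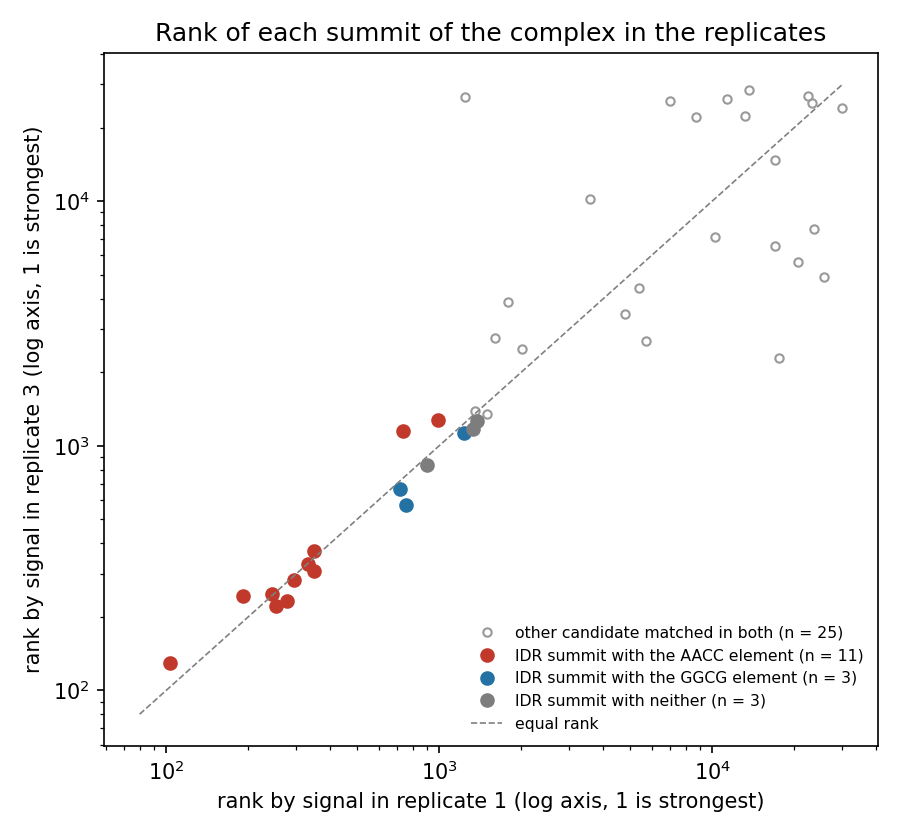
Rank by signal in replicate 3 (vertical log axis) against rank in replicate 1 (horizontal log axis) for candidates of the complex matched in both replicates, where 1 is the strongest. The 17 reproducible summits (filled) lie near the dashed line of equal rank, all with ranks of 1376 or better. Most of the 25 other candidates (open) scatter widely beyond them, but those at 6683862 and 6908492 lie next to them and near the line.

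In the complex, the reproducible summits and the other candidates met at close values of pooled signal. Each reproducible summit of the complex had the same rank in the reproducible list as in the pooled list, so membership followed pooled signal. The lowest signal in the whole reproducible list was 144, so the place where they met was set by that list and is not a trait of the complex. The weakest reproducible summit had a pooled signal of 158, and the strongest candidate outside the list, at 6683862 and 583 bp from the TSS of the cuticle gene Edg84A, had 136 with ranks of 1356 and 1389 in replicates 1 and 3. The next, at 6908492, had 133 and lay 206 bp from the reproducible summit in a 3′ UTR where Antp and CG46458 overlap. The other 8 of the 10 strongest ranged from 86.1, at 6768640 in lncRNA:CR42721, down to 66.0, at 6851301 upstream of Scr. Among the 10, 8 were matched in both replicates, 1 held the AACC element and 2 the GGCG element, including the one at Edg84A.

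No reproducible summit was found at the promoters of a few lists of genes that act with the members, but the background share of 5.68% is low, so these lists are too short to set a count of 0 apart from it. None of 6 cofactors and collaborators of Hox proteins (exd, hth, tsh, tio, disco and disco-r) had one, and none had a pooled candidate there. None of 14 segmentation regulators (hb, Kr, kni, gt, cad, nos, tll, eve, run, h, odd, slp1, prd and opa) had one, and 2 of them, hb and prd, had a pooled candidate, with signals of 44.4 and 28.7. None of the 3 Hox genes of the bithorax complex had one. Abd-B had 3 pooled candidates at its start sites, the nearest at 89 bp, of which the strongest had a signal of 109.7 and ranked 1661 in replicate 1 and 1540 in replicate 3. Its closest reproducible summit lay at 1170 bp. For abd-A this distance was 4821 bp, and for Ubx 14301 bp. Among the members, that distance ran from 223 bp at bcd to 17626 bp at pb.

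A few groups of short genes inside the complex, picked after their values were seen, had no candidate close by, whereas other genes of the window did. Within 500 bp of their bodies, none of the 7 Ccp84A cuticle protein genes between lab and pb, none of the 4 tRNA genes between mir-10 and Scr, and neither of the microRNA genes mir-10 and mir-993 had a pooled candidate, against 58.1% of all annotated genes with one. The share was not matched for gene length, so the groups cannot be set apart from it. Some lay only just beyond the limit, with a candidate 515 bp from the TSS of Ccp84Ag and another 602 bp from that of tRNA:Lys-TTT-2-4. The neighbouring cuticle gene Edg84A had one, at 6684157, with a signal of 34.2.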

How the data were processed

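Chromatin immunoprecipitation was done on embryos of 1 group in 2 libraries, replicates 1 and 3. The labels call them biological replicates and say no more of how they were raised, so the spread between them may be technical in part. The authors' deposited peak lists on dm6 give a signal for each peak, a summit and an interval. The lists were used as deposited. Candidates were called against a control, per the notes in the deposited files, and the reproducible list was made from both replicates and the pool. No aligner, caller or IDR cut-off is named in the labels or headers used here. Read depth is unknown, since the lists hold no read counts. The lists on dm3 were not used here.

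Gene models were those of Ensembl release 115, without transposable elements, and their ends for the 9 members were the same in RefSeq. Summits within 100 bp were matched between lists. A promoter was 500 bp on either side of a TSS. Other summits were classed by the annotated feature under them, with UTRs before coding exons, any other exon next, then introns, and intergenic where no gene lay. Other candidates are pooled candidates over 100 bp from a reproducible summit. A shoulder summit lies within 300 bp of a stronger one that was kept. Each matrix was learned in 10 rounds from its seed, an 8-mer frequent at summits and rare 250 bp away, and trimmed at 0.3 bits. The search was tested on simulated data. Intervals are exact Clopper-Pearson intervals at 95%. The older symbols nos and h were matched to nanos and hry. The design has no contrast, and no test was run.

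The members and lists were chosen with earlier results of these data known. Named are all 9 members, every reproducible summit of the complex, each member's strongest candidate and the one nearest a TSS, the 10 strongest other candidates, and genes of the other lists with a reproducible summit at a TSS. Abd-B, abd-A, Ubx, hb, prd, CG46458, the short genes of the complex, the paired GGCG matches at bcd and the ranks up to 360 were added after their values were seen. Alternatives were other flanks, windows and match distances, the higher-signal part of the list, shoulders dropped, a stricter matrix level and each replicate alone. The software was Python 3.11.15 with Matplotlib 3.10.9, pandas 2.3.3, NumPy 2.4.6 and SciPy 1.17.1.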

Additional observations from a re-analysis of the deposited data

How the results depend on the processing

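Of 42 alternatives, 35 left a value within its limit and 7 did not. The limits were 1.5 times for counts, the exact interval for the share and 1 SD (282) for the median rank. That SD is of the median ranks in each replicate alone. It is therefore no independent limit for the median rank without a replicate, which is among the 7. Some of the 35 had little room to move. All TSSs of the members lie from lab to Antp, so the flanks hardly bear on their count of summits at a TSS. Each reproducible summit of the complex coincides with a pooled candidate and has no other within 200 bp, so match distances of 50 and 200 bp gave the same share. In the higher-signal part of the reproducible list (ranks up to 669), 10 summits lay in the complex, 7.58% of its candidates carried one, and 0 members had one at a TSS. Within 200 bp of a TSS, 0 members had one. At the stricter level, 7 summits held the AACC element. Candidates matched in both replicates numbered 33 within 50 bp and 55 within 200 bp. The median rank of candidates was 12779 without replicate 1 and 12380 without replicate 3, against 13333 in the pooled list, and the cause was not tested. With the 1338 strongest candidates of the other library in place of the reproducible list, the complex held 18 summits without replicate 1 and 18 without replicate 3, and 11 and 13 of them held the AACC element. No paired analysis was possible because there is 1 group. Unknown depth limits what can be said of places without a candidate: none was called there, which does not show that Pita is absent.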

Other observations

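At the lab end of the stretch, the promoters of Taf1 and agt carried reproducible summits, and those of CG31286, Ass, CG1307 and twr did not. Of the 17 other protein-coding genes of the window, 2 had a reproducible summit at a promoter (11.8%, against 5.68% of all protein-coding genes). So few genes cannot set this share apart from that over all genes. At Taf1, which encodes a subunit of the general transcription factor TFIID, the summit at 6646845 lay 44 bp from the TSS, with signals of 709 in replicate 1 and 752 in replicate 3. At agt, which encodes a DNA repair alkyltransferase, the summit at 6660128 lay 28 bp from the TSS, with signals of 539 and 670 in replicates 1 and 3. Both held the AACC element. CG46458, which overlaps Antp, had 3 in or near its body, the ones described above for Antp, and none at a TSS.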
